A study of Mus musculus with 2 samples.

Results

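Basal-rich epidermal spots are places in Visium skin sections, where transcripts are read in a grid of small barcoded areas under the tissue, at which the keratins of the lowest epidermal layer outweighed loricrin, a protein of the outermost layer. The spots were selected on measured values: at least 1000 unique molecular identifiers (UMIs, single captured molecules), at least 3% of them from Krt5, Krt14 and Lor, and more from Krt5 plus Krt14 than from Lor. The rule found 501 spots among 3175 over tissue, of which 1009 had at least 1000 UMIs. The skin came from female SKH-1 mice, a hairless strain, 10 to 12 weeks old. The 4 groups were normal skin of these mice (control), skin exposed to ultraviolet radiation (UVR), and UVR skin treated with 0.1% retinol or with 0.03% 9-cis HPR, a retinoid given at another dose than retinol. Each group was 1 section, so no test of group differences was possible. Variation between animals was not measured, and the labels name no animal behind a section. Both retinoid sections shared a capture area, and the control and UVR sections shared the other. Where a treated section is set against UVR, the effects of area and of treatment cannot be told apart.

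The epidermis renews itself from its basal layer, where keratinocytes divide, express the keratin pair Krt5 and Krt14, and are held to the basement membrane by hemidesmosomes, integrins and the collagen VII fibrils that Col7a1 encodes. Cells that leave this layer switch to Krt1 and Krt10 in the spinous layers and then to loricrin, filaggrin and small proline-rich proteins in the cornified envelope. Injured or irradiated epidermis adds the stress keratins Krt6, Krt16 and Krt17 and thickens. Retinoids act through nuclear receptors such as Rarg and change how keratinocytes divide and cornify. A spot covers several cells, so a basal-rich spot can also hold cells of the layers above it and of the dermis below it.

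The sequences upstream of 6 genes are shown because 3 of them made the rule and the other 3 stood out in the comparisons below: Sprr1b in UVR skin and Alox8 and Wnt3 in treated skin. Each run is the 250 bases before the gene's start in the RefSeq table of GRCm38.p6, written 5′ to 3′ on the gene's strand, with matches to an AP-1 site (TGANTCA) or a TATA box (TATAAA) in capitals.
Krt5 (chr15:101712906-101713155, minus strand): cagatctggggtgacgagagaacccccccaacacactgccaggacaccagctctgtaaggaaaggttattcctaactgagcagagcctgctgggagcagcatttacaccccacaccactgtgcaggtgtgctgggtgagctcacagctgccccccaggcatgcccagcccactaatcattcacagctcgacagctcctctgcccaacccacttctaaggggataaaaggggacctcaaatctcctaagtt
Krt14 (chr11:100206031-100206280, minus strand): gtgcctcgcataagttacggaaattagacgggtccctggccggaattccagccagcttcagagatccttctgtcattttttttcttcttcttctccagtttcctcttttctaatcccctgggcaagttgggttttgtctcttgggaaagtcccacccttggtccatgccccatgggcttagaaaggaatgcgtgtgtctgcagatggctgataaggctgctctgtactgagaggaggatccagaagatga
Lor (chr3:92083143-92083392, minus strand): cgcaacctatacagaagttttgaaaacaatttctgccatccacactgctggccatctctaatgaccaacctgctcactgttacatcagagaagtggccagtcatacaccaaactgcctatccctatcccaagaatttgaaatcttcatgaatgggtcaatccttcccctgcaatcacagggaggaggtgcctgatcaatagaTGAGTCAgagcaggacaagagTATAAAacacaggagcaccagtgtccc
Sprr1b (chr3:92438780-92439029, minus strand): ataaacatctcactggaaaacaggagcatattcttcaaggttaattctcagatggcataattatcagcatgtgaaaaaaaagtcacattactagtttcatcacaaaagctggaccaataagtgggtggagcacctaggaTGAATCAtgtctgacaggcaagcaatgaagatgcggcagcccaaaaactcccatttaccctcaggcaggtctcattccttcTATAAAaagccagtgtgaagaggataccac
Alox8 (chr11:69197844-69198093, minus strand): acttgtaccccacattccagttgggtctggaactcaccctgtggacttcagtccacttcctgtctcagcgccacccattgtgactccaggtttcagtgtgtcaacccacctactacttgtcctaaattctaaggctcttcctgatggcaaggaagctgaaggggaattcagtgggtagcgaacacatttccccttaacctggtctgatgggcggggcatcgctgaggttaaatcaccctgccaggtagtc
Wnt3 (chr11:103773925-103774174, plus strand): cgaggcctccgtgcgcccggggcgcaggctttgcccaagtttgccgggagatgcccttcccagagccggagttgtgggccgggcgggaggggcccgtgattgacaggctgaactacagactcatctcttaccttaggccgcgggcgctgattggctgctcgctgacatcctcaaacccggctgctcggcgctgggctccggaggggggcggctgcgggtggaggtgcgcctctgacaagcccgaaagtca
The Lor and Sprr1b runs each held 1 AP-1 match, which begins 48 and 111 bases before the start, and 1 TATA match, which begins 27 and 30 bases before it. Among 32851 promoters of the table, 6.75% held the AP-1 letters and 12.4% the TATA letters in a run of this length. Another motif, AGGTCA, the core of many nuclear receptor sites, was searched on both strands as well; it was found in 14.0% of promoters and in none of the 6 runs. A match is a description of the letters only. The Krt14 run lies inside the annotated span of its gene, which reaches chr11:100207510, so it may not be the promoter of its main transcript.

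In the 3 irradiated sections, nearly every basal-rich spot had another next to it. This held for 222 of 226 in UVR, 134 of 135 in retinol-treated and 126 of 128 in HPR-treated skin. Fewer of them had a cornified-rich neighbour, at 62, 59 and 62 in the same order. Cornified-rich spots met the same keratin minimum with Lor at least as high as Krt5 plus Krt14. The UVR section held 226 basal-rich and 35 cornified-rich spots. The retinol-treated section held 135 and 41, and the HPR-treated section 128 and 53. The control section held only 12 basal-rich spots against 60 cornified-rich ones. As a share of spots with at least 1000 UMIs, basal-rich spots made up 12.4% of control (exact Clopper-Pearson 95% interval 6.56 to 20.6), 56.2% of UVR (51.2 to 61.1), 50.2% of retinol-treated (44.1 to 56.3) and 53.1% of HPR-treated skin (46.6 to 59.5). These intervals, like all others here, cover counting error only, and neighbouring spots of 1 section are not independent of each other. The intervals of the 3 irradiated sections overlapped, and that of the control section lay below all of them. This likeness depended on the keratin minimum: at 5% in place of 3%, the shares were 6.19% in control, 46.5% in UVR, 14.9% with retinol and 14.1% with HPR. Each basal-rich spot was also paired with every tissue spot next to it, so that a spot can count more than once. Of these pairs, 73.5% led to another basal-rich spot in UVR skin, 65.1% in retinol-treated and 61.6% in HPR-treated skin. In control skin 18.5% did, and 58.5% led to a spot with fewer than 1000 UMIs. Of the 12 control spots, 7 had a basal-rich neighbour.

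**Figure D1:**
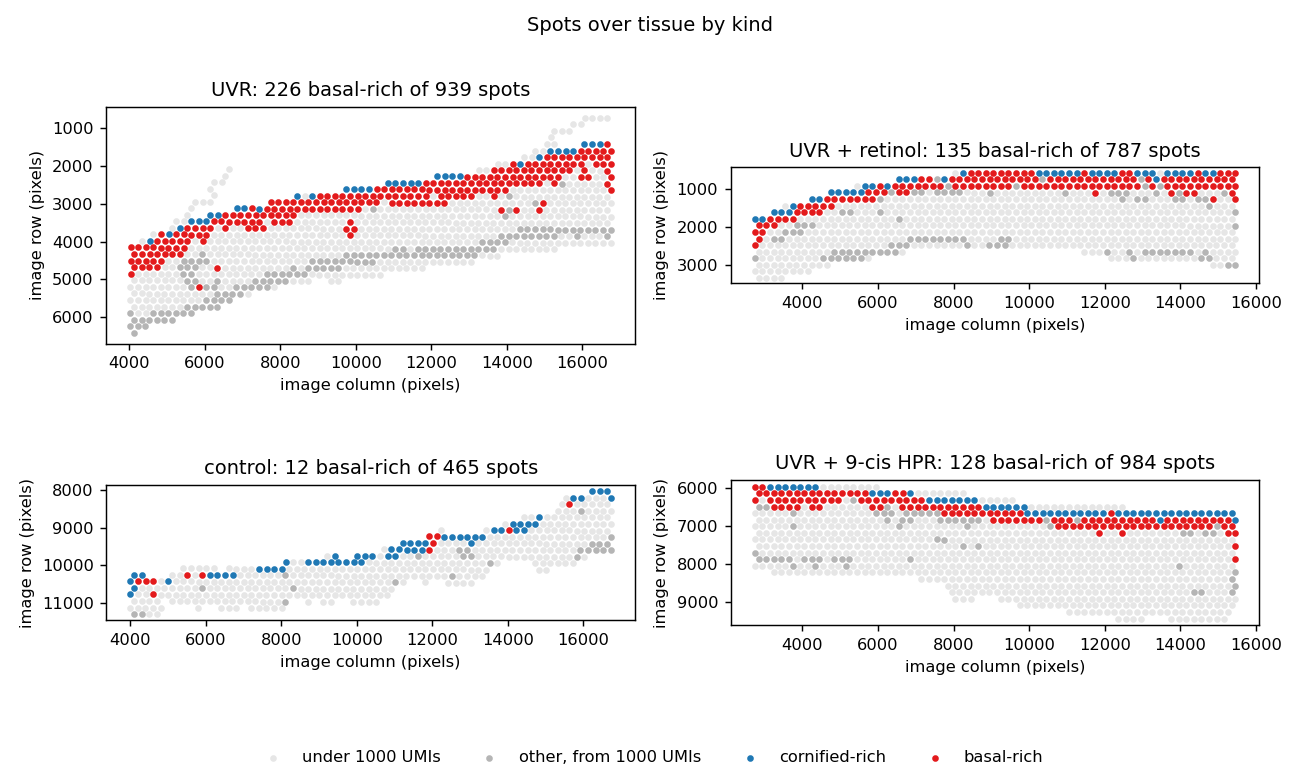
Spots over tissue in the 4 sections, by image column and row in pixels, coloured by kind. The UVR, retinol-treated and HPR-treated sections have 226, 135 and 128 basal-rich spots, while the control section has 12 basal-rich spots and 60 cornified-rich ones.

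The groups were assigned by the labels' upper and lower position, with upper read as the smaller image row. The rows of the spot grid run the other way. A reading by grid rows swaps control with UVR and retinol with HPR, the files do not settle which is right, and values under it are in the closing section. Basal-rich spots carried 26947 (control), 1830821 (UVR), 908633 (retinol) and 691156 UMIs (HPR), with median depths of 1812, 5822, 6204 and 4376 UMIs per spot. Levels are given as CPM, a gene's UMIs divided by all UMIs and scaled to 1e6, after summing a section's basal-rich spots. A count of 0 allows a level of up to 3 counts, which is 111 CPM in control, 1.64 in UVR, 3.30 in retinol-treated and 4.34 in HPR-treated spots. In such sums, fewer cells of a type and less RNA per cell cannot be told apart. The libraries were probe-based, and the division of counts between near-identical copies (Krt6a and Krt6b, Krt14, Krt16 and Krt17, the Sprr genes, Dsg1a and Dsg1b, Mt1 and Mt2) is uncertain.

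The 3 genes of the rule are described without a test, since they chose the spots. Krt5 took a median of 2.79% of a spot's UMIs in control (range 2.26 to 5.09), 4.69% in UVR (0.942 to 15.3), 3.09% with retinol (1.05 to 6.29) and 2.96% with HPR (1.11 to 7.05). Krt14 took 0.308% in control (0.0719 to 1.18), 1.25% in UVR (0.195 to 4.19), 0.789% with retinol (0.248 to 1.31) and 0.654% with HPR (0.207 to 1.28). UVR spots reached the highest values of both keratins, and the spots of all sections overlapped. Summed Krt5 was 8.22 times summed Krt14 in control spots and 2.64, 3.91 and 4.16 times in UVR, retinol-treated and HPR-treated spots, so Krt14 varied more between sections than Krt5 did. Lor took a median of 1.97% in the control spots and 0.200%, 0.333% and 0.404% in the other sections. Summed Lor was 0.650 times summed Krt5 plus Krt14 in control spots but 0.152, 0.174 and 0.204 times in the others. By the rule's own genes, the control spots thus lay closest to the limit. In 6 of the 12, Krt5 plus Krt14 was under 60% of the 3-gene sum, and the spots nearest to the limit on either side had 50.3% and 50.0%. At the UMI limit the nearest control spots had 1101 and 975 UMIs, and at the keratin limit 3.51% and 2.91%; in the other sections the nearest spots lay between 1014 and 1052 UMIs inside and between 985 and 999 outside, and between 3.01% and 3.04% inside and 2.81% and 2.99% outside.

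Col7a1, the marker of the label that the rule did not use, was sparse. It had 3 UMIs in control spots (111 CPM), 40 in UVR (21.8 CPM), 25 in retinol-treated (27.5 CPM) and 29 in HPR-treated spots (42.0 CPM), and between 14.8% and 16.7% of basal-rich spots held any. Cornified-rich spots held 14.1, 7.04, 0 and 15.6 CPM. Spots with at least 1000 UMIs that were neither basal-rich nor cornified-rich held no Col7a1 in control and UVR skin, 19.9 CPM (4 UMIs) with retinol and 44.6 CPM (5 UMIs) with HPR. Col17a1 and Itgb4, both parts of the hemidesmosome, gave clearer numbers in UVR skin, where Col17a1 was 3.16-fold (1.73 to 6.42) and Itgb4 5.61-fold (2.54 to 15.5) higher in basal-rich than in cornified-rich spots. Col17a1 was also 2.46-fold (1.16 to 6.0) higher with HPR, and with retinol it had 91 UMIs in basal-rich and 1 in cornified-rich spots. In control skin it stood at 223 CPM in basal-rich and 226 CPM in cornified-rich spots, from 6 and 32 UMIs. In the other spots of UVR skin Col17a1 and Itgb4 stood at 33.5 and 27.4 CPM, against 122 and 119 in basal-rich spots. In the other spots of HPR-treated skin they stood at 89.1 and 80.2 CPM, from 10 and 9 UMIs, against 76.7 and 63.7 in basal-rich spots, and with retinol Itgb4 stood at 49.9 against 42.9 CPM. These markers thus set basal-rich spots apart from both other kinds in UVR skin; with HPR they set them apart from cornified-rich spots only, and in control skin the UMIs were too few to check the label. Jup, plakoglobin of desmosomes and adherens junctions, had more UMIs than any other gene in basal-rich spots of every section: 76075 CPM in control, 72721 in UVR, 76922 in retinol-treated and 102514 in HPR-treated spots. It does not mark these spots, since its median share was higher in cornified-rich spots of every section. In the same order it was 7.25%, 5.57%, 6.90% and 9.50% in basal-rich spots and 7.72%, 8.40%, 9.35% and 11.6% in cornified-rich spots.

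**Figure D2:**
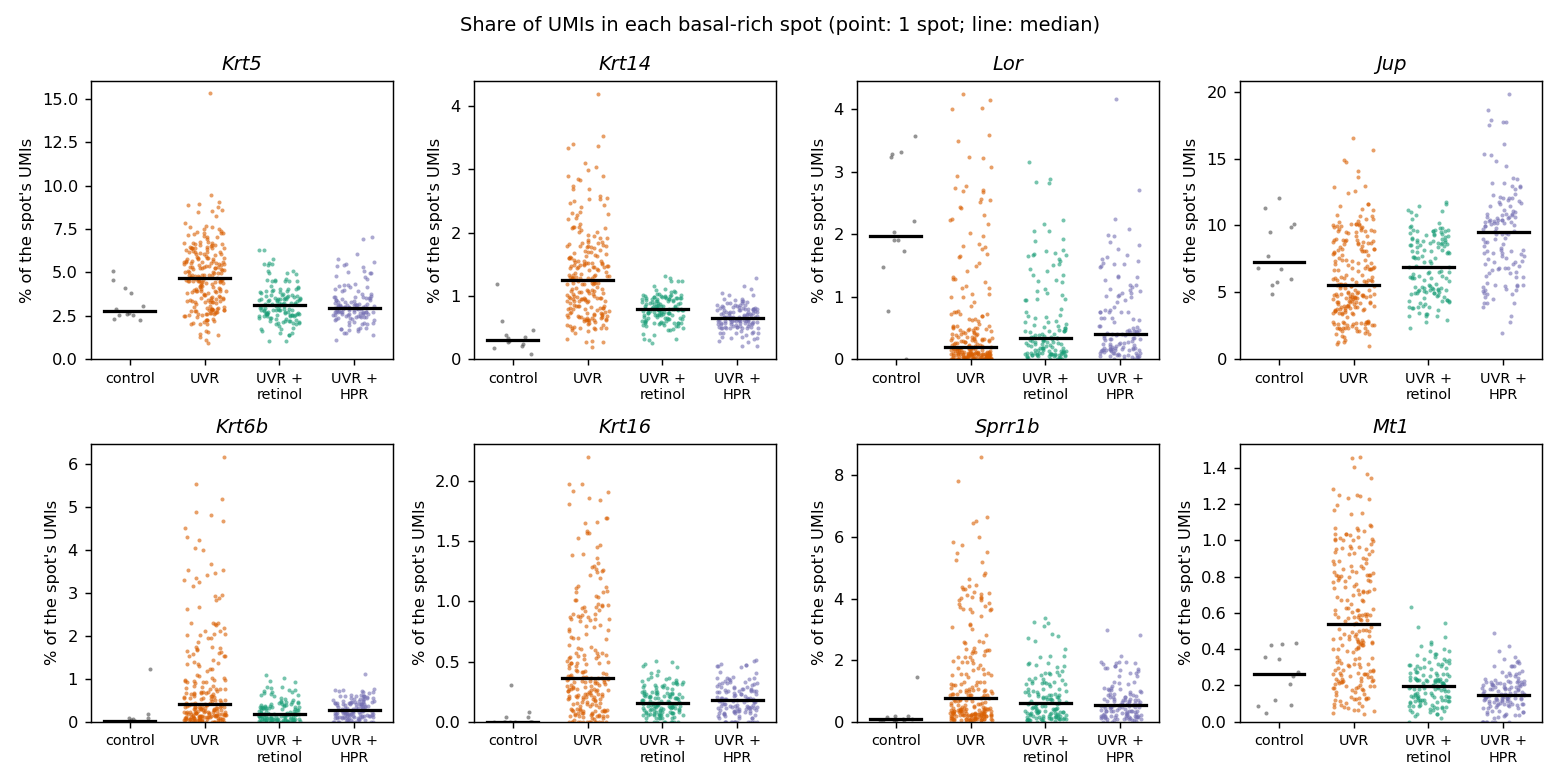
Share of each basal-rich spot's UMIs (percent) for 8 genes, 1 point per spot and a line at the section's median, for 12 control, 226 UVR, 135 retinol-treated and 128 HPR-treated spots. Krt14, Krt6b, Krt16, Sprr1b and Mt1 reach their highest values in UVR spots, and 1 control spot stands above the other 11 in Krt6b, Krt16 and Sprr1b.

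The 2 basal keratins did not vary together from spot to spot. Within UVR skin the rank correlation of Krt14 with Krt5 over 226 basal-rich spots was -0.11, whereas that of Krt14 with the stress keratins was 0.72 for Krt6b and 0.73 for Krt16, and with Sprr1b 0.73. The 135 retinol-treated spots gave -0.04 with Krt5, 0.48 with Krt6b and 0.42 with Krt16. The 128 HPR-treated spots gave -0.08, 0.56 and 0.49. Krt5 gave -0.15, -0.29 and -0.30 with Krt6b in the same order of sections, and -0.33, -0.46 and -0.49 with Lor. Krt14 went the other way with Lor, at 0.54, 0.25 and 0.25. These correlations describe spots of 1 section that share its library, shares of 1 total and neighbouring tissue, and Krt5 and Krt14 were part of the selection. Across 747 genes found in at least 50% of basal-rich spots of all 3 irradiated sections, the genes most like Krt14 by the lowest of the 3 correlations were Krt6b, Sprr1b, the water and glycerol channel Aqp3 (0.60, 0.47 and 0.51) and Krt16. Most like Krt5 was Fth1, the ferritin heavy chain (0.50, 0.60 and 0.40). This measure of likeness was chosen after values were seen.

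**Figure D3:**
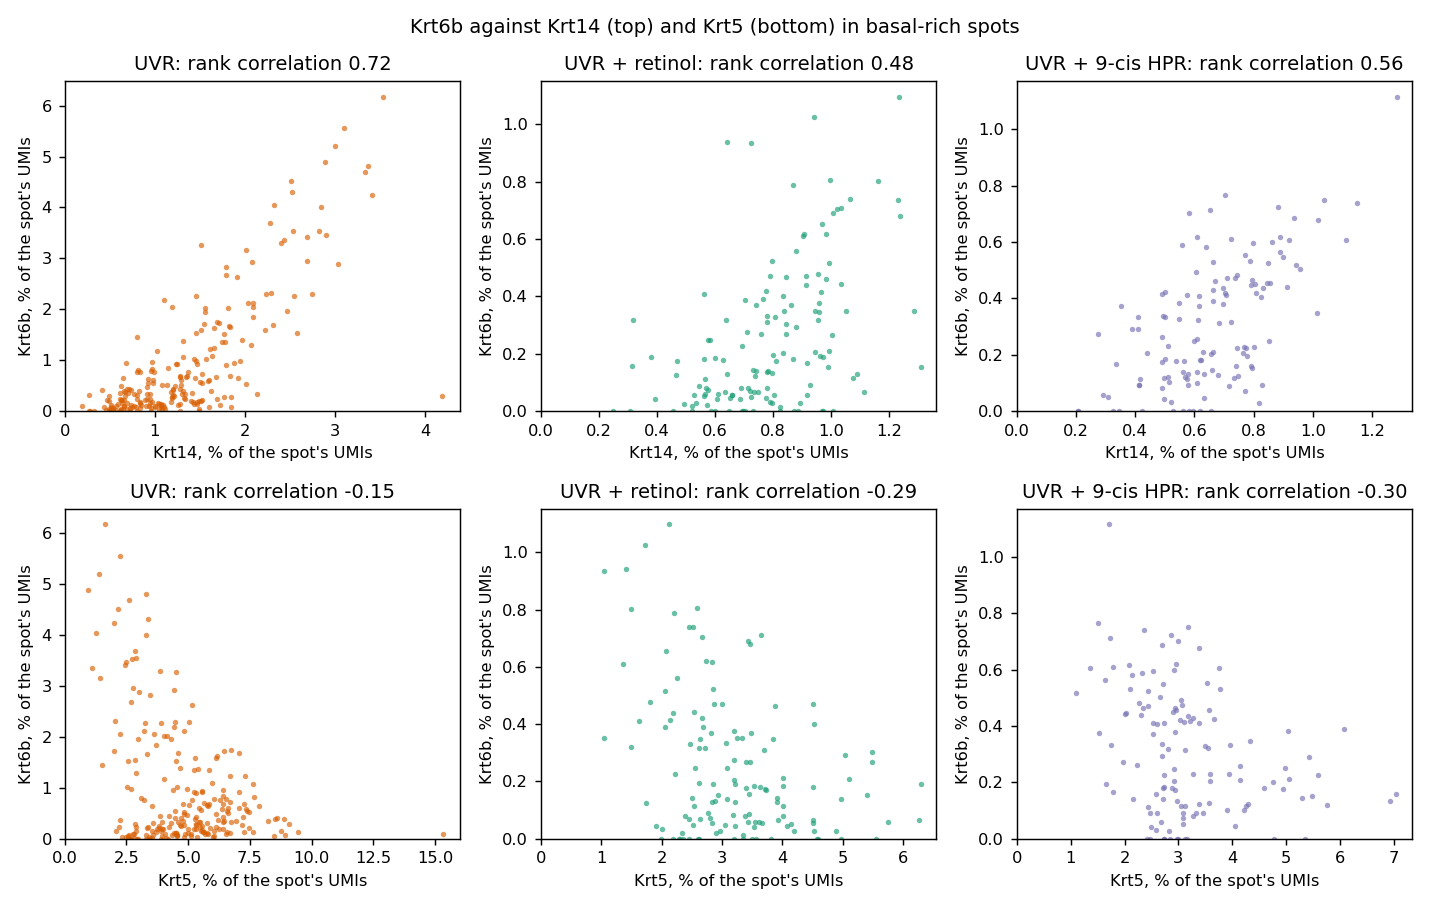
Krt6b share against Krt14 share (top) and Krt5 share (bottom), in percent of a spot's UMIs, for the basal-rich spots of the 3 irradiated sections; 1 point is 1 spot, and axes differ between panels. Krt6b increases with Krt14, with rank correlations of 0.72, 0.48 and 0.56, and not with Krt5, with -0.15, -0.29 and -0.30.

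Set against the cornified-rich spots of their own section, basal-rich spots of the 3 irradiated sections had higher medians of the replication and anchoring lists and lower medians of the cornified list. In control skin no replication or anchoring gene reached 100 UMIs over both kinds. Both kinds were chosen by Krt5, Krt14 and Lor, so ratios of those genes are no result, and other genes are described without a test. Krt5 was higher in basal-rich spots of every section, but Krt14 was not. Krt14 stood at 17310 CPM in UVR basal-rich and 24932 CPM in UVR cornified-rich spots, and at 7317 and 8735 CPM with HPR. With retinol it stood at 8175 and 8120 CPM, and in control skin at 3934 and 3074 CPM. Of genes with at least 100 UMIs over both kinds, 30.1% of 1931 were higher by 2-fold or more in UVR basal-rich spots and 5.85% were lower by as much. With retinol 17.3% of 1239 genes were higher and 4.36% lower, and with HPR 18.0% and 6.40% of 1063. In control skin they were 2.33% and 3.88% of 258, where the basal-rich spots were closest to the limit. The share of higher genes rested on the scaling: the median log2 ratio of all genes with at least 20 UMIs was 0.56 in UVR, 0.41 with retinol and 0.51 with HPR. After centring on the median of the compared genes, 250 UVR genes were higher and 262 lower (582 and 113 before), 71 and 112 with retinol (214 and 54) and 70 and 116 with HPR (191 and 68).

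The replication list, which holds the licensing factors of the Mcm family and mitotic genes, had a median log2 ratio of 1.59 in UVR, 1.43 in retinol-treated and 1.30 in HPR-treated skin. All 9 of its genes with at least 100 UMIs were at least 2-fold higher in UVR basal-rich spots, as were 3 of 3 in retinol-treated and 1 of 2 in HPR-treated spots. Mcm2, a subunit of the replicative helicase, stood at 742 CPM in UVR basal-rich and 151 CPM in UVR cornified-rich spots, a 4.90-fold difference (3.62 to 6.81). It was 2.69-fold (1.64 to 4.70) higher with retinol, 3.24-fold (2.12 to 5.17) with HPR and 3.11-fold (1.57 to 5.99) in control skin. The anchoring list had medians of 1.63, 1.76 and 1.37. Wnt10a, a ligand of the Wnt pathway, was 1.77-fold (1.09 to 2.80) higher in control, 5.21-fold (3.71 to 7.56) in UVR, 2.63-fold (2.15 to 3.26) in retinol-treated and 2.72-fold (2.19 to 3.41) in HPR-treated basal-rich spots. Axin2, a target of that pathway named here after its values were seen, was 3.14-fold, 3.66-fold and 2.81-fold higher in the 3 irradiated sections. In control skin it was 1.30-fold lower (0.504 to 4.24), from 5 and 34 UMIs.

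Genes of the cornified envelope, to which the rule's own Lor belongs, were lower in basal-rich spots. The cornified list had medians of -1.86, -1.66 and -2.14 in the irradiated sections. Crct1, a gene of the epidermal differentiation complex, was lower in basal-rich spots of all 4 sections: 3.01-fold (2.51 to 3.64) in control, 4.01-fold (3.90 to 4.12) in UVR, 5.44-fold (5.21 to 5.67) in retinol-treated and 7.88-fold (7.48 to 8.30) in HPR-treated skin. Of 252 genes outside the rule with at least 100 UMIs in every section, 110 were higher and 42 lower in basal-rich spots of all 4. These counts and the next ones were not centred, so how far higher genes outnumber lower ones depends on the scaling described above. At least 2-fold in all 4 were Eif4b, a translation initiation factor, on the higher side and Crct1, Calm4, Anxa9, Nccrp1 and Rnf225 on the lower. Over the 3 irradiated sections, 75 of 1030 genes were at least 2-fold higher in all and 41 at least 2-fold lower. The higher ones included the fibrillar collagens Col1a2 and Col5a1, with 293 and 281 UMIs in UVR basal-rich spots; these are dermal genes, and the share of dermis under each spot was not tested. The stress keratin list lay on the low side in the irradiated sections, with medians of -0.25, -0.46 and -0.52. In control skin it lay on the other side, with a median of 2.11 and summed levels of 2561 CPM in basal-rich and 650 CPM in cornified-rich spots. Small proline-rich genes stood at 1781 and 799 CPM there. Of the control basal-rich UMIs, 1 spot held 24 of 33 for Krt6b, 6 of 11 for Krt16 and 28 of 45 for Sprr1b. These control levels were not compared with cornified-rich spots without it, so their direction may rest on that spot.

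**Figure D4:**
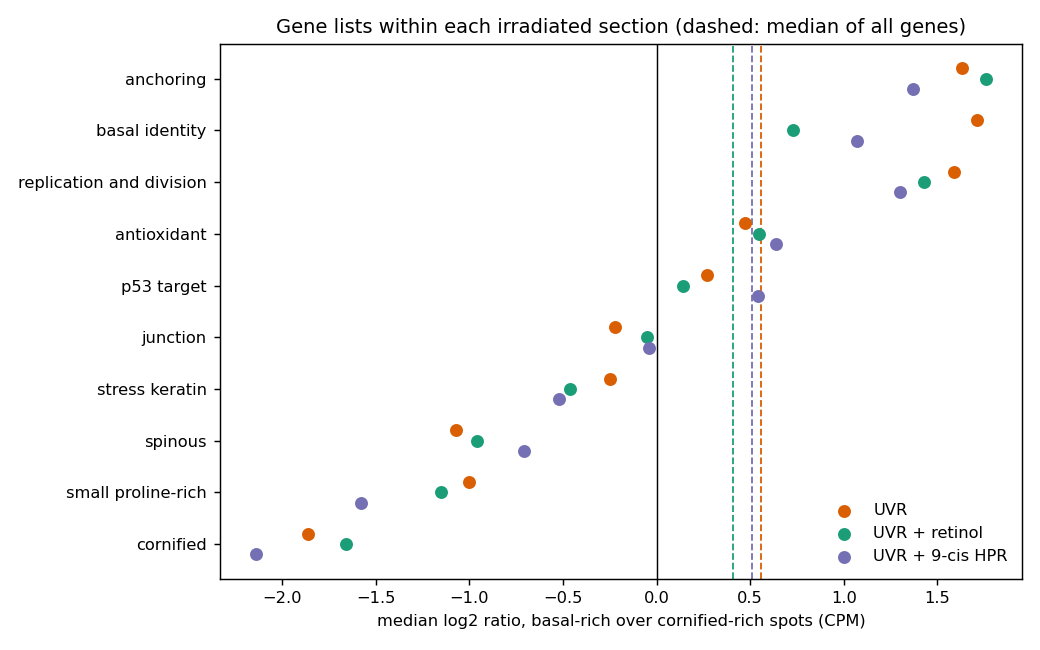
Median log2 ratio of CPM, basal-rich over cornified-rich spots of the same section, for 10 gene lists (members with at least 20 UMIs); colours are the 3 irradiated sections and dashed lines mark the median of all genes at 0.56, 0.41 and 0.51. Anchoring and replication genes lie right of these lines and cornified genes lie left, at -1.86, -1.66 and -2.14.

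UVR against control asks how irradiation altered these spots. The stress keratins Krt6b and Krt16 and the small proline-rich genes Sprr1a and Sprr1b were far higher in UVR basal-rich spots, and Krt10 and filaggrin were lower. Krt16, which pairs with Krt6 (chromosome 11, 100246091 to 100248902 in GRCm38.p6), stood at 408 CPM in control and 8208 in UVR, 20.1-fold higher (11.2 to 40.3). Krt6b (chromosome 15, 101676023 to 101680293) stood at 1225 and 15348 CPM, 12.5-fold higher (8.92 to 18.2). Sprr1b, an envelope precursor, stood at 1670 and 24824 CPM, 14.9-fold higher (11.1 to 20.4). Sprr1a, with 3 control UMIs, was 17.2-fold higher (5.88 to 83.4). Krt17 was not clearly different, at 854 and 1069 CPM (1.25-fold, 0.833 to 1.98).

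The control values of these genes came largely from 1 spot. That spot of 1949 UMIs held 24 of 33 Krt6b, 6 of 11 Krt16 and 28 of 45 Sprr1b UMIs. Without it the ratios were 42.6-fold (22.5 to 93.2) for Krt6b, 41.0-fold (17.6 to 126) for Krt16 and 36.5-fold (22.8 to 62.7) for Sprr1b. The other 11 control spots held 0 to 4 Krt6b UMIs each. Krt6b was found in 95.6% of UVR spots and in 87.2% of them after each spot was thinned to 1000 UMIs, against 41.7% of control spots thinned alike. The control spots also held more Lor, whose part in these ratios was not tested apart from the following. Limited to spots with Krt5 plus Krt14 between 50% and 75% of the 3-gene sum (10 control and 29 UVR spots), Krt16 was 29.5-fold (16 to 61.5), Krt6b 21.4-fold (15.1 to 31.3) and Sprr1b 23.2-fold (17.4 to 31.9) higher.

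With 26947 control UMIs, few other genes could be measured. Among 1814 genes with at least 100 UMIs, 15.9% were higher by 2-fold or more and 9.26% were lower by as much, but 180 were at 0 in control and entered as bounds, which cannot show a lower level in UVR. When the 95% interval also had to exclude equal levels, 4.24% were higher and 5.73% lower, and this rule is used for the lists here. It called 2 of 4 stress keratins and 2 of 4 small proline-rich genes higher. It called 3 of 7 cornified genes higher: Lypd3, a surface protein of upper keratinocytes, 4.59-fold (2.78 to 8.21), the crosslinking enzyme Tgm1 2.79-fold (1.71 to 4.89) and Cdsn, corneodesmosin, 2.36-fold (1.54 to 3.82). Flg, filaggrin, was 3.56-fold lower (2.23 to 5.41). Of 9 spinous genes, Krt10 was 6.62-fold lower (5.37 to 8.10), at 3897 CPM in control and 588 in UVR, and Dsg1b was higher at 7.21-fold (1.29 to 285) from 1 control UMI. Within the narrow range of the 3-gene sum Krt10 was 3.88-fold lower (3.06 to 4.87). Krt77, a keratin of the spinous layer named after its values were seen, had 17 UMIs in 12 control spots and 4 UMIs in 226 UVR spots.

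Other lists held fewer such genes. Of 4 antioxidant genes, 2 were called higher, with the metallothionein Mt1 2.11-fold (1.67 to 2.72) and thioredoxin Txn1 2.24-fold (1.17 to 4.90). Of 8 targets of p53, the factor that answers DNA damage, 2 were called higher, Aen with 4.47-fold (1.23 to 37.0) and Phlda3 with 2.03-fold (1.03 to 4.73); Cdkn1a, the cell cycle inhibitor, was 1.31-fold higher (1.10 to 1.57). Of 5 retinoid genes, Fabp5, a carrier of fatty acids and retinoic acid, was 3.58-fold higher (2.72 to 4.82), and Rarg, the main retinoic acid receptor of epidermis, was 2.11-fold lower (1.52 to 2.87). Replication genes were barely separated at this depth: 1 of 9 was called higher, Ticrr with 1 control UMI, and Mcm2 stood at 594 and 742 CPM (1.25-fold higher, 0.767 to 2.19), but was 2.30-fold lower (1.19 to 4.12) in the narrow range of the 3-gene sum. Of 3 basal identity genes, Wnt3, a Wnt ligand of basal cells, was 7.21-fold lower (3.83 to 12.5), with 14 UMIs in control and 132 in UVR. None of 5 anchoring, 3 lipoxygenase or 3 interferon genes was called. Of 12 junction genes, the gap junction protein Gjb2 was called higher and Ctnna1, an adherens junction protein, lower. Gjb2, Dsg1b, Ticrr and Aen rested on 1 or 2 control UMIs, and Ctnna1 turned direction at a keratin minimum of 5%. Among genes with at least 200 UMIs, the 5 lowest of the comparison were Srcin1 (10.5-fold, 8.30 to 13.1), Acaa2, Krt10, Acta1 and Agfg2. Acta1, with 15 control UMIs, is actin of skeletal muscle. The 10 muscle markers together stood at 2338 CPM in control spots and 724 CPM in UVR spots, with 8 and 10 of them seen. The control level came from 63 UMIs that were spread unevenly. Per control spot these markers had a median share of 0.0795% and a highest share of 2.15%, so the summed level does not describe most control spots.

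The treated sections were compared with the UVR section to ask what each retinoid altered in irradiated skin. Both ratios have the same UVR section below the line, so the 2 sets of values are not independent of each other. All directions below rest on reading upper by image row: read by grid rows, with the 12 spots as UVR, the log2 ratio of Krt6b turned to 1.71 with retinol and 1.29 with HPR, and that of Wnt3 to -0.42 and -0.08. Treated basal-rich spots had less stress keratin, small proline-rich and replication transcript than UVR spots and more Alox8 and Wnt3. Of 2228 genes compared with retinol, 4.49% were higher by 2-fold or more and 10.2% were lower by as much. Of 2103 genes compared with HPR, these shares were 2.76% and 10.5%.

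Stress keratins were lower in each treated section. Krt6b stood at 15348 CPM in UVR, 2991 with retinol (5.13-fold lower, 4.93 to 5.34) and 3999 with HPR (3.84-fold lower, 3.69 to 3.99). Its median share per spot was 0.422%, 0.176% and 0.268%, and its highest share was 6.18%, 1.10% and 1.12%, so the sections differed most in their upper spots and overlapped in the lower ones. Krt16 was 3.87-fold lower (3.69 to 4.06) with retinol and 3.33-fold lower (3.17 to 3.51) with HPR. Krt17 was 1.49-fold and 1.57-fold lower. At least 2-fold lower were 3 of 4 stress keratins with retinol and 2 of 4 with HPR. Sprr1b was 2.44-fold (2.38 to 2.49) and 2.48-fold (2.42 to 2.54) lower and Sprr1a 2.86-fold and 3.40-fold lower; of 4 small proline-rich genes, 3 were at least 2-fold lower with retinol and 4 with HPR. Within spots whose Krt5 plus Krt14 was 50% to 75% of the 3-gene sum, Krt6b was 5.85-fold lower with retinol (5.47 to 6.26) and 5.28-fold lower with HPR (4.96 to 5.63).

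Replication genes were lower as a group. At least 2-fold lower were 8 of 9 with retinol and 7 of 9 with HPR, and the list medians were -1.40 and -1.39 against -0.13 and -0.18 for all genes. Mcm2 stood at 742 CPM in UVR, 259 with retinol (2.87-fold lower, 2.50 to 3.31) and 302 with HPR (2.45-fold lower, 2.12 to 2.85). Mcm3, another helicase subunit, was 3.63-fold (3.02 to 4.39) and 2.78-fold (2.31 to 3.37) lower. Ccnd1, cyclin D1, was lower by 8.72-fold (5.73 to 13.9) and 5.65-fold (3.82 to 8.68). In the narrow range of the 3-gene sum, which leaves 24 and 28 treated spots, Mcm2 was 1.77-fold lower with retinol (1.14 to 2.87) and 1.22-fold higher with HPR (0.868 to 1.71), so its lower level with HPR was not seen in the spots nearest to the cornified side.

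Spinous and cornified genes split. Krt78, a keratin of differentiating epithelium, was 10.8-fold (7.63 to 15.7) lower with retinol and 10.3-fold (7.02 to 15.7) lower with HPR, and the desmosomal cadherin Dsg1a was 4.38-fold and 3.25-fold lower. Cdsn stood at 1839 CPM in UVR, 307 with retinol and 315 with HPR, 5.99-fold (5.30 to 6.79) and 5.83-fold (5.08 to 6.72) lower. Krt1 was 1.24-fold (1.07 to 1.43) higher with retinol and 1.42-fold (1.22 to 1.65) higher with HPR, Krt10 was 1.72-fold and 1.39-fold lower, and Tgm1 was 1.26-fold higher with retinol and 1.16-fold lower with HPR. At least 2-fold lower were 6 of 9 spinous genes with retinol and 4 of 9 with HPR, 2 and 3 of 7 cornified genes, and 4 and 3 of 13 junction genes; none of these was at least 2-fold higher. Jup was 1.06-fold higher with retinol (1.05 to 1.07) and 1.41-fold higher with HPR (1.40 to 1.42).

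Of the basal identity list, 4 of 4 genes with at least 100 UMIs were higher in each comparison: Wnt3, Wnt10a, Wnt7b and Dll1. At least 2-fold higher were 3 of them with retinol and 1 with HPR. The basal keratin Krt15 ran the other way, at 28.9 CPM in UVR, 12.1 with retinol and 11.6 with HPR, from 53, 11 and 8 UMIs. Wnt3 stood at 72.1 CPM in UVR, 492 with retinol (6.82-fold higher, 5.61 to 8.35) and 388 with HPR (5.38-fold higher, 4.35 to 6.68); 520 CPM were measured in control. It was found in 31% of UVR spots, 81.5% of retinol-treated and 73.4% of HPR-treated spots, and after thinning to 1000 UMIs in 4.87%, 32.6% and 28.9%. Wnt10a was 2.39-fold (2.20 to 2.58) and 1.61-fold (1.46 to 1.77) higher, and Wnt7b 2.81-fold (2.08 to 3.79) and 1.74-fold (1.20 to 2.51). Anchoring genes did not follow: 1 of 6 was at least 2-fold lower in each comparison, Itgb4 (2.76-fold, 1.96 to 3.99) with retinol and Itgb1 (2.09-fold, 1.47 to 3.03) with HPR, and none was 2-fold higher. Srcin1 stood at 315 CPM in UVR, 1349 with retinol and 1155 with HPR, against 3303 in control.

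The lipoxygenases, enzymes that oxidise fatty acids of the epidermis, did not follow 1 direction. Alox8 was at 0 UMIs in control, which allows up to 111 CPM and gives no direction against UVR. It stood at 44.2 CPM in UVR, 955 with retinol (21.6-fold higher, 17.2 to 27.5) and 444 with HPR (10.0-fold higher, 7.84 to 13.0). Its share of spots with a UMI was 18.6%, 68.1% and 59.4%, or 3.98%, 36.3% and 33.6% after thinning. Alox12e was 5.53-fold (4.88 to 6.28) and 1.99-fold (1.69 to 2.35) higher. Alox12 was 9.03-fold (4.80 to 19.2) and 13.7-fold (5.78 to 42.8) lower, and Alox12b 3.77-fold and 2.25-fold lower. Fcgbp (21.7-fold, 14.7 to 33.2) and the sulfotransferase Sult5a1 (10.6-fold, 7.81 to 14.6) were, beside Alox8, among the highest with retinol; with HPR they were 6.81-fold and 6.15-fold higher. Lowest among genes with at least 200 UMIs was Cyp2s1, a cytochrome P450 that metabolises retinoic acid, at 181 CPM in UVR, 13.2 with retinol (13.7-fold lower, 7.76 to 26.8) and 13.0 with HPR (13.9-fold lower, 7.25 to 30.7). Tppp3 with retinol (10.5-fold lower, 5.77 to 21.4) and Cnfn, cornifelin, with HPR (9.36-fold lower, 5.01 to 19.8) were also among the lowest.

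**Figure D5:**
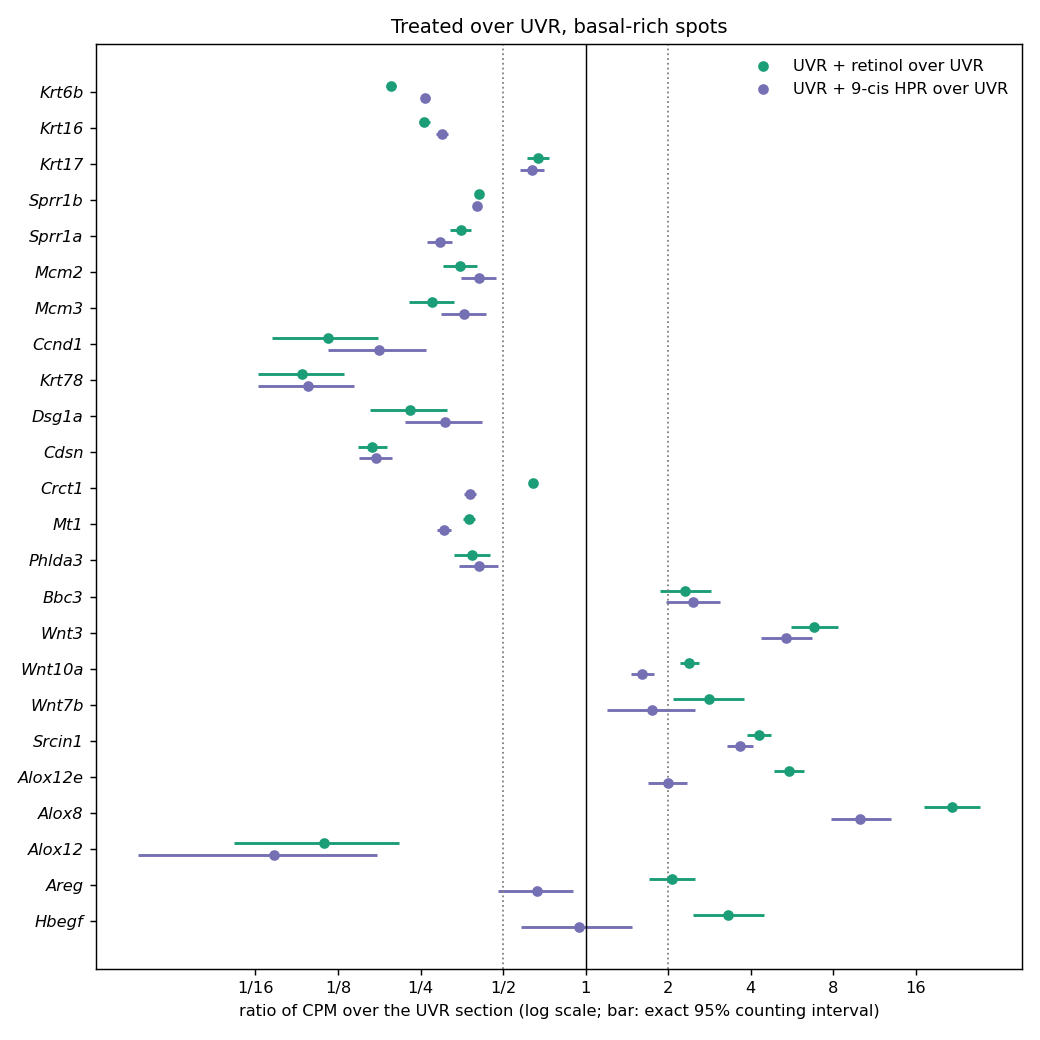
Ratio of CPM over the UVR section for 24 genes in basal-rich spots, on a log axis, with exact 95% counting intervals; both treatments share the UVR section, and their doses differ. Krt6b is 5.13-fold and 3.84-fold lower, Alox8 21.6-fold and 10.0-fold higher, and Areg 2.06-fold higher with retinol and 1.51-fold lower with HPR.

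Among retinoid genes, Rarg was 1.64-fold (1.51 to 1.78) higher with retinol and 1.61-fold (1.48 to 1.76) higher with HPR. The retinoic acid carrier Crabp2 was 1.85-fold (1.72 to 1.98) and 1.55-fold (1.44 to 1.67) lower. Of the p53 targets, Phlda3 was 2.59-fold and 2.44-fold lower and Bbc3, which promotes cell death, 2.31-fold (1.87 to 2.86) and 2.46-fold (1.97 to 3.08) higher; 2 of 9 with retinol and 1 of 8 with HPR were at least 2-fold higher, and 2 in each at least 2-fold lower. Mt1 was 2.67-fold (2.54 to 2.81) and 3.28-fold (3.09 to 3.49) lower. Interferon and class I genes held 1 of 5 at least 2-fold higher with retinol, Psmb8, and 2 of 5 with HPR, Psmb8 and B2m. Of the alarmins, Slpi, a protease inhibitor, was the only gene with at least 100 UMIs, at 66.6 CPM in UVR, 42.9 with retinol and 5.79 with HPR.

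Markers of other cells differed in these comparisons too, and their part in the results was not tested. The 10 muscle markers together stood at 724 CPM in UVR, 222 with retinol and 285 with HPR; 4 of 4 with at least 100 UMIs were at least 2-fold lower with retinol, Myh4 the most at 8.17-fold (5.41 to 12.9), and 3 of 4 with HPR. The 10 fibroblast markers stood at 520 CPM in control, 264 in UVR, 522 with retinol and 913 with HPR, with 7 of 10 seen in each irradiated section, and the 12 macrophage and dendritic markers at 891, 144, 471 and 538 CPM. Col3a1, collagen III (5.21-fold, 4.01 to 6.81), and Cd74, the invariant chain (4.90-fold, 3.70 to 6.52), were among the 5 highest genes with at least 200 UMIs with HPR. Without spots that held over 1% of such markers their log2 ratios were 2.34 and 2.23, against 2.38 and 2.29 with them. That limit was wide. In HPR-treated spots the fibroblast markers had a median share of 0.0576% (highest 1.25%), and the macrophage and dendritic markers reached 0.292% at most. The comparison therefore cannot show how much such cells added to these ratios. The 8 sebaceous markers stood at 371 CPM in control, from 10 UMIs, 105 in UVR, 60.5 with retinol and 21.7 with HPR, and Fa2h, a fatty acid hydroxylase among them, was 3.07-fold lower with retinol (1.93 to 5.13) and 9.82-fold lower with HPR (4.10 to 30.7). The 9 Langerhans and T cell markers stood at 186, 25.1, 55.0 and 50.6 CPM in the same order, the 7 melanocyte and nerve markers at 0, 75.4, 49.5 and 126, and the 4 plasma cell markers at 260, 93.4, 89.1 and 85.4. Neutrophil, mast cell, adipocyte and endothelial markers stood at no more than 74.2 CPM in any section, a control value from 2 UMIs. The other control levels were sparse too, from 5 Langerhans and T cell, 7 plasma cell, 14 fibroblast and 24 macrophage and dendritic UMIs. A control count of 0 allows up to 111 CPM, so the melanocyte and nerve markers gave no direction between control and UVR. Follicle markers came almost wholly from Gata3, which interfollicular keratinocytes also express.

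HPR and retinol were set side by side at 0.03% and 0.1%. The doses differ, so the values compare 2 sections and not 2 molecules at 1 dose. Few genes separated them by 2-fold: 0.644% of 1553 were higher with HPR and 1.35% lower. Of the 10 higher genes, those named with at least 200 UMIs were Dnajb3 (2.03-fold, 1.54 to 2.70) and Zfp503 (2.01-fold, 1.73 to 2.33). With fewer UMIs, the melanocyte marker Tyrp1 was 2.74-fold higher (1.81 to 4.23) and the fibroblast marker Col1a1 2.35-fold higher (1.63 to 3.43). Among the genes lower with HPR were Fcgbp (3.18-fold, 2.45 to 4.17), Alox12e (2.78-fold, 2.42 to 3.20) and Slc9a3r1 (2.27-fold, 1.66 to 3.15), and Alox8 was 2.15-fold lower (1.89 to 2.46). Both ligands of the EGF receptor with at least 100 UMIs were lower with HPR: Areg, amphiregulin, stood at 116 CPM in UVR, 239 with retinol and 76.7 with HPR, 3.11-fold lower with HPR (2.30 to 4.29), and Hbegf stood at 41.5, 138 and 39.1 CPM, 3.52-fold lower (2.31 to 5.55). Over the right side of each section alone, the log2 ratio of Areg with retinol over UVR was -0.04. Krt6b was 1.34-fold higher with HPR (1.27 to 1.41) and Jup 1.33-fold higher (1.32 to 1.35), whereas Sprr1b differed by 1.02-fold (0.986 to 1.05). None of 4 stress keratins, 5 replication genes, 6 cornified genes or 7 junction genes with at least 100 UMIs was 2-fold apart.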

How the data were processed

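Visium libraries of 2 capture areas, with 2 sections each, were analysed. Per the labels' protocols, a probe-based kit for fixed tissue was used on fresh-frozen sections. Per gene and spot, the files give UMI counts as deposited, without normalization. The submitters' processing notes name Space Ranger 2.0.0, Seurat 4.1.0 and the build mm10, and no value normalized by the authors was used. Each matrix held 19465 genes, 11 with a repeated symbol, and the areas shared 430 spot barcodes, as the slides' grid repeats.

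A gap in image row between the pieces of tissue separated the sections of an area. Counts were summed over a section's basal-rich spots and divided by the total to give CPM, and sections were compared as ratios with exact Clopper-Pearson 95% intervals from the split of a gene's UMIs. A gene was compared from 100 UMIs over both sections, entered a list's median from 20, and was called from 2-fold. A section with 0 UMIs was set to 3 counts, so that its ratio is a bound, and a bound on the far side of equal levels gave no direction. Each group was 1 section, so there is no p-value, and spots did not serve as replicates. The ratio code was tested on simulated data.

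The spots, gene lists and genes named were chosen with earlier results of these data known. The 5 highest and 5 lowest genes with at least 200 UMIs and the ends of each list were named by rule, and key genes of the lists besides. Some genes that this rule names are not reported here. Gene names, positions and promoters come from a RefSeq table of GRCm38.p6, which named 19084 genes. Alternatives changed the UMI, keratin, balance and gene minimums, scaling, pseudocount, depth, weight of spots, side of the section and reading of upper and lower. Leaving out 1 control spot and the narrow range of the 3-gene sum were added after seeing the data. Python 3.11.15, numpy 2.4.6, pandas 2.3.3 and scipy 1.17.1 were used.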

Additional observations from a re-analysis of the deposited data

Results flagged for a closer look

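Areg, which encodes the EGF receptor ligand amphiregulin, differed in direction between the treatments. Its log2 ratio to UVR skin was 1.04 with retinol, from 217 UMIs against 212, and -0.59 with HPR, from 53 UMIs against 212. Both ratios share the UVR section, the doses differ, and with 1 section per group the difference was not tested. Over the right side of each section's basal-rich spots the retinol ratio was -0.04.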

How the results depend on the processing

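Counts of genes moved mostly with how many genes or UMIs entered, and 12 control spots limit every ratio of UVR to control. No paired analysis was possible because each group had 1 section. Over all alternatives, 54 ratios of lists or named genes that were at least 2-fold changed direction, as did 97 smaller ones. Of the 54, 47 named genes and 3 list medians turned under the reading by the spot grid, which exchanges the groups. Of the smaller ones, 15 named genes and 16 list medians did so. Without a change of direction, 122 fell below 2-fold and 62 rose to it. The other 2222 kept their direction and their side of 2-fold. A setting that left a gene at 0 in a section and its bound without direction gave no value for it. With Krt5 plus Krt14 over 2 times Lor, 3 control spots were left. Values past the limits are given below, with retinol/UVR and the like for ratios of CPM. Counts are of genes past 2-fold, out of the genes compared where a setting changed that number. With spots from 500 UMIs, basal-rich spots made up 40.8% in retinol and 36.2% in HPR. With spots from 2000 UMIs, basal-rich spots made up 63.9% in UVR, 64.2% in retinol and 66.5% in HPR. With spots from 2000 UMIs, genes past 2-fold were 188 higher of 1764 in UVR/control, or 39 by the interval rule. Of 177 compared in basal/cornified in control, 2 were higher. At a keratin minimum of 2%, basal-rich spots made up 58.4% in retinol and 61.0% in HPR. At a keratin minimum of 5%, basal-rich spots made up 6.19% in control, 46.5% in UVR, 14.9% in retinol and 14.1% in HPR. At a keratin minimum of 5%, genes past 2-fold were 39 higher of 1721 in UVR/control by the interval rule. HPR/retinol held 4 higher and 10 lower of 644. In basal/cornified they were 71 higher of 601 with retinol and 79 higher of 559 with HPR. At a keratin minimum of 5%, log2 ratios of UVR/control turned to Ctnna1 0.50. With Krt5 plus Krt14 over 2 times Lor, basal-rich spots made up 3.09% in control and 43.1% in retinol. With Krt5 plus Krt14 over 2 times Lor, genes past 2-fold were 94 higher and 300 lower of 1681 in UVR/control. By the interval rule, 25 were higher. On the left side of the sections, UVR/control held 182 higher and 99 lower of 1120, or 40 and 60 by the interval rule. Retinol/UVR held 120 lower of 1444, and HPR/UVR 32 higher and 109 lower of 1351. On the left side of the sections, log2 ratios of UVR/control turned to Ctnna1 0.46. On the right side, UVR/control held 191 higher of 1272, or 41 by the interval rule, and HPR/retinol 2 higher of 1026. On the right side, log2 ratios of retinol/UVR turned to Areg -0.04. In the narrow range of the 3-gene sum, UVR/control held 134 higher and 73 lower of 570. Retinol/UVR held 68 lower of 758, HPR/UVR 78 lower of 761, and HPR/retinol 3 higher and 8 lower of 527. In the narrow range of the 3-gene sum, log2 ratios of HPR/UVR turned to Mcm2 0.29. With ratios centred on their median, genes past 2-fold were 89 higher in HPR/UVR, 16 higher in HPR/retinol, 250 higher and 262 lower in basal/cornified in UVR, 71 higher and 112 lower in basal/cornified with retinol and 70 higher and 116 lower in basal/cornified with HPR. With genes from 20 UMIs, UVR/control held 819 lower of 4335, or 201 by the interval rule. Retinol/UVR held 321 higher and 775 lower of 5035, and HPR/UVR 257 and 808 of 4923. HPR/retinol held 137 and 212 of 3769. In basal/cornified there were 80 higher and 99 lower of 1038 in control, and 1463 and 289 of 4504 in UVR. With retinol they were 720 and 171 of 3064, and with HPR 748 and 181 of 2757. With genes from 500 UMIs, UVR/control held 81 higher and 31 lower of 568, with 31 lower by the interval rule. Retinol/UVR held 41 higher and 50 lower of 789, and HPR/UVR 23 and 56 of 729. HPR/retinol held 1 and 6 of 494. In basal/cornified there were 1 higher and 3 lower of 40 in control, and 155 and 48 of 618 in UVR. With retinol they were 30 and 26 of 356, and with HPR 32 and 27 of 297. With a pseudocount of 1 CPM and no gene minimum, UVR/control held 6520 higher and 1651 lower of 11368. Retinol/UVR held 1582 higher and 2382 lower of 11965, HPR/UVR 1467 and 2364 of 11857, and HPR/retinol 1908 and 2031 of 10867. With spots thinned to 1000 UMIs, UVR/control held 58 higher and 28 lower of 377, or 30 and 28 by the interval rule. Retinol/UVR held 28 higher and 34 lower of 580, HPR/UVR 16 and 43 of 563, and HPR/retinol 2 and 9 of 437. At equal total UMIs, UVR/control held 10 higher and 8 lower of only 74, and 10 and 8 by the interval rule. Retinol/UVR held 150 lower of 1752, HPR/UVR 115 lower of 1470, and HPR/retinol 6 higher of 1422. With equal weight per spot, genes past 2-fold were 37 lower in HPR/retinol. With groups read by the spot grid, basal-rich spots made up 56.2% in control and 12.4% in UVR. With groups read by the spot grid, UVR/control held 168 higher and 288 lower of 1814, and retinol/UVR 152 and 59 of 915. HPR/UVR held 203 higher and 85 lower of 1157, and HPR/retinol 21 and 10 of 1553. With groups read by the spot grid, log2 ratios of UVR/control turned to Krt16 -4.33, Sprr1a -4.10, Sprr1b -3.89, Krt6b -3.65, Srcin1 3.39, Acaa2 2.79, Krt10 2.73, Acta1 2.33, Agfg2 2.32, Mt1 -1.08, Fabp5 -1.84, Gjb2 -2.88, Ctnna1 1.71, Cdsn -1.24, Lypd3 -2.20, Tgm1 -1.48, Flg 1.83, Dsg1b -2.85, Wnt3 2.85, Rarg 1.08, Ticrr -2.52, Phlda3 -1.02, Aen -2.16 and Txn1 -1.16. With groups read by the spot grid, log2 ratios of retinol/UVR turned to stress keratin list 1.31, Fcgbp -0.83, Wnt3 -0.42, Krt6b 1.71, Krt16 2.59, Sprr1a 2.34, Sprr1b 2.58 and Srcin1 -1.52. With groups read by the spot grid, log2 ratios of HPR/UVR turned to stress keratin list 0.63, Wnt3 -0.08, Cd74 -2.08, Krt6b 1.29, Krt16 2.38, Sprr1a 2.59, Sprr1b 2.61, B2m -0.55 and Srcin1 -1.29. With groups read by the spot grid, log2 ratios of HPR/retinol turned to EGF receptor ligand list 1.64, Fcgbp 1.67, Areg 1.64, Hbegf 1.82, Alox12e 1.47, Alox8 1.10, Slc9a3r1 1.18, Dnajb3 -1.02 and Zfp503 -1.01. The cause of these changes was not tested, apart from fewer or more genes, spots or UMIs entering, and under the grid reading the exchange of groups.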

Other observations

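Within treated skin the 2 lipoxygenases that were higher than in UVR skin ran against each other over spots. The rank correlation of Alox8 with Alox12e was -0.58 over the 135 retinol-treated and -0.32 over the 128 HPR-treated basal-rich spots, against 0.08 over 226 UVR spots. Alox8 went with Sprr1b, with 0.70, 0.59 and 0.20 in the same order. Against the cornified-rich spots of the same section, Alox8 was 1.89-fold lower (1.66 to 2.16) and Alox12e 2.97-fold higher (2.29 to 3.92) in basal-rich spots with retinol, and 1.94-fold lower (1.62 to 2.31) and 2.02-fold higher (1.47 to 2.81) with HPR. The spots of a section share its library and depth, and these pairs were chosen after their values were seen.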
